A study of Mus musculus with 6 samples.

Results

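The 10 genes described here encode negative feedback regulators of MAP kinase signalling: the dual specificity phosphatases Dusp1, Dusp2, Dusp4, Dusp5, Dusp6 and Dusp10, the Sprouty proteins Spry1 and Spry2, and the Sprouty-related proteins Spred1 and Spred2. They were chosen by gene symbol, and all 10 were found among the 24589 symbols of the table. The libraries were bulk RNA-seq of wild-type mouse primary CD8+ T cells, the cytotoxic lymphocytes, which were activated through CD3 and CD28 in Click's medium. In 3 libraries the cells had received 20 µM TVA (trans-vaccenic acid, found in the fat of ruminants) for 24 h, and in 3 control libraries DMSO, the solvent. The cells had been bead-purified from spleen and lymph nodes of C57BL/6 mice and activated on plate-bound antibodies. The sources used here do not say whether the libraries of a group came from separate mice or cultures, so p-values measure only the spread between these libraries, which may be technical.

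A T cell receptor signal activates Ras and then the kinase chain RAF, MEK and ERK, and in parallel the MAP kinases JNK and p38. Dual specificity phosphatases of the MAP kinase phosphatase group remove both the phosphothreonine and the phosphotyrosine that keep ERK, JNK or p38 active. Sprouty and Spred proteins act further up, at the level of Ras and RAF. Many of these genes are themselves transcribed in response to ERK activity, so that the pathway limits its own output. In T cells, this feedback is known to set how strongly and how long a cell responds to antigen.

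Of the 10 genes, Dusp1 and Dusp10 were lower and Spry2 was higher with TVA, and the other 7 did not pass the test. The phosphatase gene with the most transcripts, Dusp2, and the ERK phosphatase genes Dusp5 and Dusp6 were among those 7. Levels are given as TPM, transcript abundance scaled to transcript length and to an equal total in each library. Changes are differences of log2(TPM + 1), TVA minus DMSO, tested with limma with adjustment over all 10866 genes that reached at least 1 TPM in at least 3 libraries, and a call means an adjusted p under 0.05. This scale slightly understates the change of genes with low TPM. Among all genes tested, 8.51% were called, 5.28% as higher and 3.23% as lower, against 3 of the 10 genes here, 1 higher and 2 lower. The split over all genes depended on how libraries were scaled, and with median-of-ratios scaling 292 were higher and 462 lower. The median change of the 10 genes was -0.01 on the log2 scale, and that of all genes tested was 0.04. In bulk RNA, fewer cells of a type and less RNA per cell cannot be told apart.

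**Figure D1:**
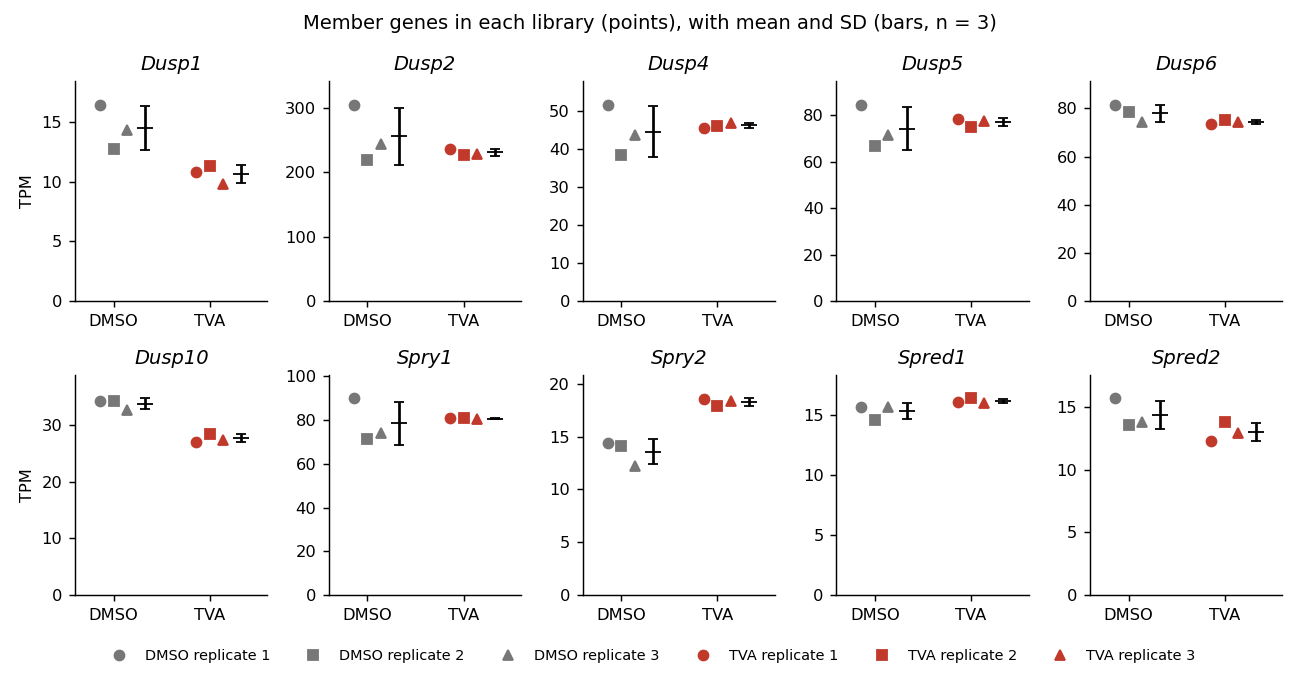
TPM of the 10 genes in each of the 6 libraries (points, shape by replicate number), with mean and SD (bars, n = 3) and a separate linear axis from 0 for each gene. The TVA points lie wholly below the DMSO points for Dusp1 and Dusp10, wholly above them for Spry2 and by a narrow margin for Spred1, and DMSO replicate 1 is the highest control for 9 of the 10 genes.

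The libraries were checked before the genes were compared. Sequencing depth is unknown, since TPM keeps no trace of it. CD8 T cell markers (Cd8a, Cd8b1, Cd3d, Cd3e, Cd3g and Lck) summed to 1842 to 1995 TPM in the DMSO libraries and 2094 to 2123 TPM with TVA, and Cd3g was called higher. CD4 T cell markers summed to 15.11 to 16.18 TPM in the DMSO libraries and 12.18 to 14.23 TPM with TVA (1 of 3 tested was called lower), and B cell markers to 11.26 to 14.88 and 10.65 to 11.02 TPM, with Pax5 listed at 0 in at least 1 library. Myeloid cell markers summed to 56.99 to 65.46 TPM in the DMSO libraries and 74.29 to 78.07 TPM with TVA, and 2 of the 6 that were tested, Lyz2 and Tyrobp, were called higher. Among NK cell markers, whose sum was 23.24 to 26.22 TPM in the DMSO libraries and 34.51 to 35.72 TPM with TVA, the called gene was Eomes, which CD8 T cells also express. The part of these cells in the results below was not tested. DMSO replicate 2 stood closer to the TVA libraries (Pearson r across genes of at least 0.996) than to DMSO replicates 1 (0.993) and 3 (0.995). The log2 change had a Spearman correlation of -0.40 with transcript GC content across genes, which are not independent replicates.

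The positions of the genes in GRCm38 (GENCODE vM21), the build that the submitters' notes call mm10, were as follows. Dusp1 lies at chr17:26505590-26562128 on the minus strand, Dusp10 at chr1:184013302-184075636 on the plus strand and Spry2 at chr14:105891947-105896819 on the minus strand. The annotated span of Dusp1 overlaps the protein-coding gene Ergic1 on the other strand, which was at 54.86 to 61.68 TPM, and 2 processed pseudogenes. That of Dusp10 overlaps 1700056E22Rik on the other strand, which was at 0.25 to 1.39 TPM. Dusp5 and Spry1 each overlap a gene model on the opposite strand. It is not stated whether strand was used in counting, so values of these 4 genes carry that uncertainty. Spry2, Dusp2, Dusp4, Dusp6, Spred1 and Spred2 overlap no other annotated gene.

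The study asked in part whether TVA acts on transcription through cAMP and the factor CREB, and well known elements of immediate early promoters are the CRE, which CREB binds, and the CArG box, which serum response factor binds. The 250 bases before the RefSeq start were therefore searched for both in the 9 genes with a RefSeq entry for GRCm38.p6, all except Dusp4. The sequences of the 3 called genes, and of Dusp5 for its CArG boxes, are shown 5′ to 3′ on the strand of the gene, with matches in capitals.
Dusp1: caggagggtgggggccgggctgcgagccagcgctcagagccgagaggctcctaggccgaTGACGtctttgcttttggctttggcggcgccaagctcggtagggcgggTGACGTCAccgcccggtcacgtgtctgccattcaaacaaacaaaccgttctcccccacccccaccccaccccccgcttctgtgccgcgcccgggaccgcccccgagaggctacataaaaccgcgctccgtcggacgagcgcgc
Dusp10: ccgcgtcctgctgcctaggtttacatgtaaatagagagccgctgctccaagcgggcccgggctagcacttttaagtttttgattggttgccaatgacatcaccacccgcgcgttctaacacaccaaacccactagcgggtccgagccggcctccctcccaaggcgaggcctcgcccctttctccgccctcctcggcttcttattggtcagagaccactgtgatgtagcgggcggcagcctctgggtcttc
Spry2: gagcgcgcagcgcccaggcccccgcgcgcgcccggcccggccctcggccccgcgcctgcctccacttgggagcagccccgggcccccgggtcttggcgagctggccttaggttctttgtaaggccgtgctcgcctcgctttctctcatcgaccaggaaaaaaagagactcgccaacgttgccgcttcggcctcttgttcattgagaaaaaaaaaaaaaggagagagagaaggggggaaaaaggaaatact
Dusp5: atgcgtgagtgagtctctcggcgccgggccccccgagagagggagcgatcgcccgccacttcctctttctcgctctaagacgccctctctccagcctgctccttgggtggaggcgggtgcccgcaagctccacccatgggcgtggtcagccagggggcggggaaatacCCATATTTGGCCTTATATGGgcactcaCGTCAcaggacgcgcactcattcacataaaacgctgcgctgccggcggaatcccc
The windows are chr17:26508473-26508722 (minus strand) for Dusp1, chr1:184034131-184034380 (plus) for Dusp10, chr14:105896820-105897069 (minus) for Spry2 and chr19:53528895-53529144 (plus) for Dusp5. The full CRE, TGACGTCA, was found in the Dusp1 window at -143 to -136 from the start and in no other of the 9. Its core, TGACG or on the other strand CGTCA, which the full CRE also contains on both strands, was found in 3 of the 9 genes. These were Dusp1, with a further core at -191 to -187, Dusp5 at -55 to -51 and Spred2 at -51 to -47. CArG boxes were found in Dusp5, side by side at -82 to -73 and -72 to -63, and in none of the other 8.

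**Figure D2:**
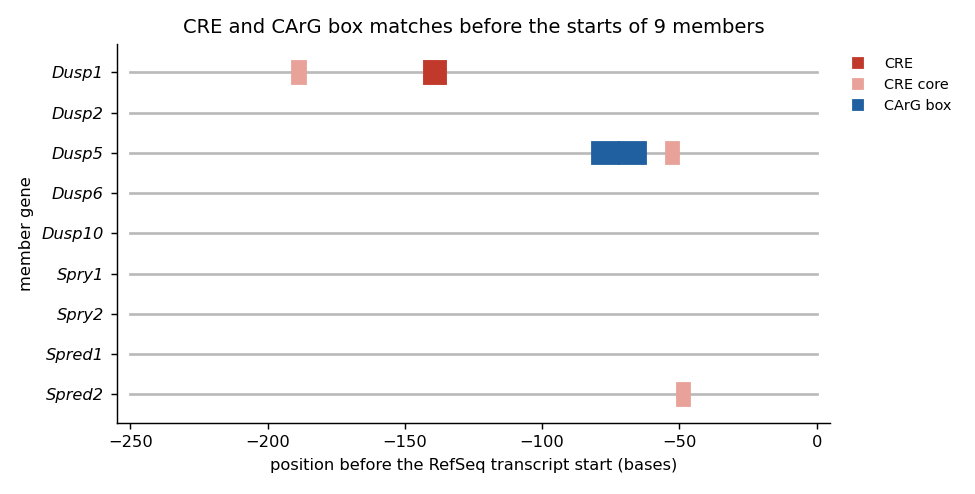
Positions of matches to the CRE (dark red), its 5-letter core (light red) and the CArG box (blue) in the 250 bases before the RefSeq transcript start of 9 genes; the x axis is the distance from the start in bases. The Dusp1 line carries the full CRE and a further core, the Dusp5 line a joined pair of CArG boxes and a core, and the Spred2 line a core.

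Of all 27025 RefSeq promoter windows of the same length, 1.62% held the full CRE, 17.9% the core and 1.40% a CArG box on either strand. Among the 8469 windows of genes tested here the shares were 3.06%, 29.2% and 1.03%. The Dusp10 and Spry2 windows held no match to these letters. The GENCODE spans of Dusp1, Dusp10, Dusp5 and Spred2 begin further upstream than the RefSeq starts used here. The matches of Dusp1 and Spred2 therefore lie inside the annotated spans of these genes. A match is a description of the sequence and not a measured binding site.

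Dusp1 encodes MKP-1, a nuclear phosphatase of p38, JNK and ERK that is induced within minutes of many stimuli. Its level was 16.42, 12.72 and 14.27 TPM in DMSO replicates 1 to 3 and 10.79, 11.31 and 9.79 TPM in TVA replicates 1 to 3. Every TVA library lay below every DMSO library, and the gap between the nearest of them, DMSO replicate 2 and TVA replicate 2, was small beside the spread of the controls. The mean fell by 26.5%, from 14.5 ± 1.86 to 10.6 ± 0.773 TPM (SD, n = 3), a log2 change of -0.41 (SE 0.092, 95% interval -0.62 to -0.19, limma adjusted p 0.041). The call was the weakest of the 3. It was lost without DMSO replicate 3 (0.096), on leaving out any 1 TVA library (0.11 to 0.15), with no filter on low values (0.082) and with a replicate block (0.068). With a TVA library left out, 102 to 125 genes were called in all, against 925 in the reported fit.

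Dusp10 encodes MKP-5, which acts mainly on JNK and p38. Its level was 34.28, 34.29 and 32.62 TPM in the DMSO libraries and 27.07, 28.5 and 27.44 TPM with TVA. Both groups were narrow, and they were well apart. The mean fell by 18.0%, from 33.7 ± 0.961 to 27.7 ± 0.742 TPM (SD, n = 3), a log2 change of -0.28 (SE 0.042, 95% interval -0.37 to -0.18, limma adjusted p 0.015). When any 1 TVA library was left out, the adjusted p was 0.065 to 0.089. Dusp10 transcripts had a GC content of 50.6% and Dusp1 transcripts 52.9%. After subtraction of a GC trend within each library both genes were still called lower, with log2 changes of -0.30 (adjusted p 0.0030) and -0.41 (0.024).

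Dusp2, Dusp4, Dusp5 and Dusp6, which act on ERK as Dusp1 also does, were not called. Dusp2 (PAC-1), a nuclear phosphatase first found in activated T cells, had the highest level of the 10 genes, at 304.89, 218.51 and 243.78 TPM in the DMSO libraries and 236.23, 226.74 and 229.04 TPM with TVA. The TVA libraries all lay inside the range of the DMSO libraries. The log2 change was -0.13 (95% interval -0.38 to 0.11, limma adjusted p 0.41), and it was -0.001 without DMSO replicate 1 and -0.24 without DMSO replicate 2. Dusp6 (MKP-3), the cytoplasmic ERK phosphatase and a common readout of ERK activity, was at 81.43, 78.35 and 74.44 TPM in the DMSO libraries and 73.51, 75.07 and 74.17 TPM with TVA. Its interval was among the narrowest of the 10, with a log2 change of -0.07 (-0.17 to 0.03, adjusted p 0.28), which was -0.11 after the GC trend was subtracted and -0.04 without DMSO replicate 1. Dusp5, the nuclear phosphatase particular to ERK, was at 84.6, 66.6 and 71.75 TPM in the DMSO libraries and 78.4, 75.05 and 77.47 TPM with TVA, a log2 change of 0.06 (-0.13 to 0.24, adjusted p 0.65). Dusp4 (MKP-2), also nuclear, was at 51.54, 38.22 and 43.69 TPM in the DMSO libraries and 45.53, 46.06 and 46.7 TPM with TVA, a log2 change of 0.06 (-0.16 to 0.28, adjusted p 0.68). For Dusp4 and Dusp5, as for Dusp2, the TVA values fell within the range of the controls, and the intervals leave room for changes of either sign. Without DMSO replicate 2 the signs of both turned, to -0.04 for Dusp4 and -0.02 for Dusp5.

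The upstream inhibitors did not move alike. Spry2, which encodes an inhibitor of Ras-ERK signalling downstream of receptor tyrosine kinases, was at 14.36, 14.13 and 12.22 TPM in the DMSO libraries and 18.58, 17.88 and 18.33 TPM with TVA. The lowest TVA library was well above the highest control. The mean rose by 34.6%, from 13.6 ± 1.17 to 18.3 ± 0.355 TPM (SD, n = 3), a log2 change of 0.41 (SE 0.064, 95% interval 0.26 to 0.56, limma adjusted p 0.016). Its transcripts had a GC content of 46.2%, and after the GC trend was subtracted the change was 0.35 (adjusted p 0.019). When any 1 TVA library was left out, the adjusted p was 0.075 to 0.084.

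Spry1, the better expressed Sprouty gene here, was at 89.83, 71.45 and 74.23 TPM in the DMSO libraries and 80.84, 80.67 and 80.35 TPM with TVA. The TVA libraries were nearly equal and lay between the controls, of which replicate 1 was the high one. Its log2 change was 0.05 (95% interval -0.14 to 0.23, limma adjusted p 0.72). Without DMSO replicate 1 the change was 0.14 and Spry1 was called higher (adjusted p 0.044), and without DMSO replicate 2 it was -0.02. The ratio of Spry2 to Spry1 TPM was 0.160, 0.198 and 0.165 with DMSO and 0.230, 0.222 and 0.228 with TVA, without overlap. That largely restates the call of Spry2.

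Spred1 and Spred2 bind neurofibromin, a Ras inactivator, and hold Ras in check at the membrane. Spred1 was at 15.72, 14.59 and 15.7 TPM in the DMSO libraries and 16.13, 16.4 and 16.02 TPM with TVA. The groups did not overlap, but the log2 change of 0.07 did not pass (95% interval -0.03 to 0.18, limma adjusted p 0.31), and after the GC trend was subtracted it was -0.01. Spred2 was at 15.68, 13.6 and 13.8 TPM in the DMSO libraries and 12.32, 13.78 and 12.9 TPM with TVA, with overlap between TVA replicate 2 and the controls. Its log2 change was -0.13 (-0.29 to 0.02, adjusted p 0.22), and -0.07 without DMSO replicate 1. In all, the groups did not overlap for 4 of the 10 genes, and likewise did not overlap for 38.6% of all genes tested.

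**Figure D3:**
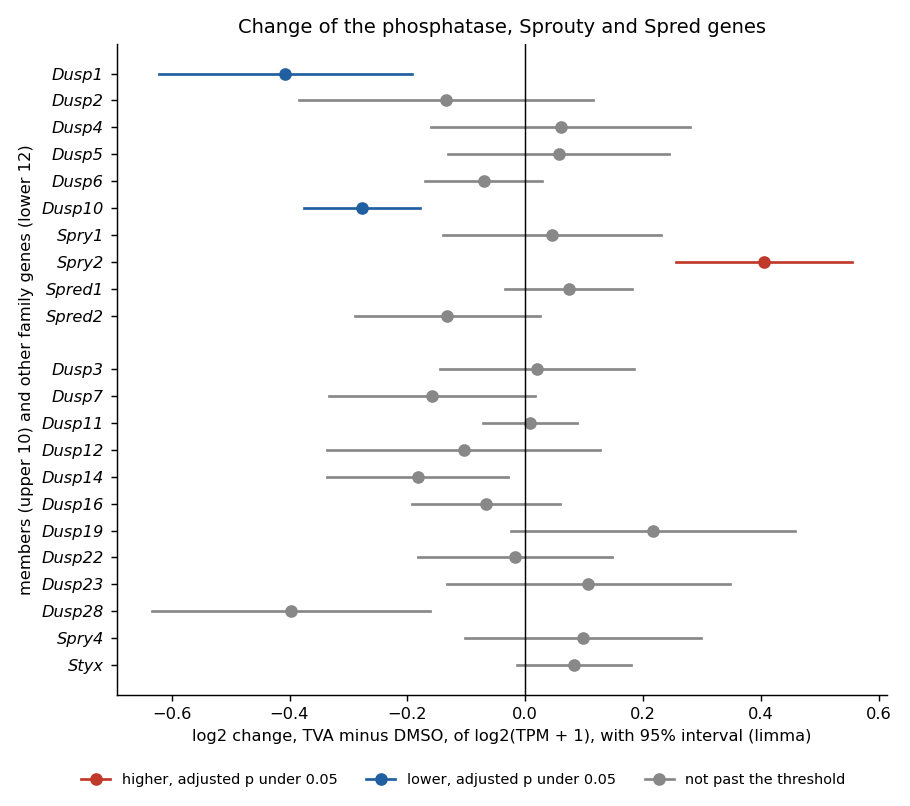
Log2 change (TVA minus DMSO, of log2(TPM + 1)) with its 95% interval from limma for the 10 genes (upper block) and the 12 other family genes that were tested (lower block). Dusp1 and Dusp10 (blue) lie left of 0, Spry2 (red) lies right of it, and no gene of the lower block passed the threshold.

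By level, the 10 genes fell into a steep order. With DMSO, Dusp2 stood above all others in every library and made up 40.9% of their summed TPM. Spry1, Dusp6 and Dusp5 followed with overlapping values, then Dusp4, then Dusp10, and Spred1, Dusp1, Spred2 and Spry2 overlapped at the low end. With TVA the order was Dusp2, Spry1, Dusp5 and Dusp6, Dusp4 and Dusp10, with overlap between Dusp5 and Dusp6. Among the lowest 4, Spry2 moved from rank 10 to rank 7 and Dusp1 from rank 8 to rank 10, and with TVA their values no longer overlapped.

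The summed level of the 6 phosphatase genes was 573.2, 448.7 and 480.6 TPM in the DMSO libraries and 471.5, 462.7 and 464.6 TPM with TVA. The summed level of the 4 Sprouty and Spred genes was 135.6, 113.8 and 116.0 TPM in the DMSO libraries and 127.9, 128.7 and 127.6 TPM with TVA. Both sums overlapped between the groups, and Dusp2 dominated the first. The ratio of Dusp10 to Dusp6 was 0.421 to 0.438 with DMSO and 0.368 to 0.380 with TVA. The ratio of Dusp1 to Dusp6 was 0.162 to 0.202 with DMSO and 0.132 to 0.151 with TVA. Neither ratio overlapped between the groups. Both divide a called gene by one that was not called, so this largely restates the calls.

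The control libraries varied more than the TVA libraries. The coefficient of variation was larger with DMSO than with TVA for 10 of the 10 genes and for 74.4% of all genes tested. Its median over the 10 genes was 10.6% with DMSO and 2.04% with TVA, against 6.17% and 3.17% over all genes tested. DMSO replicate 1 was the highest control for 9 of the 10 genes (49.7% of all genes tested), and DMSO replicate 2 the lowest for 7 (31.3%).

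**Figure D4:**
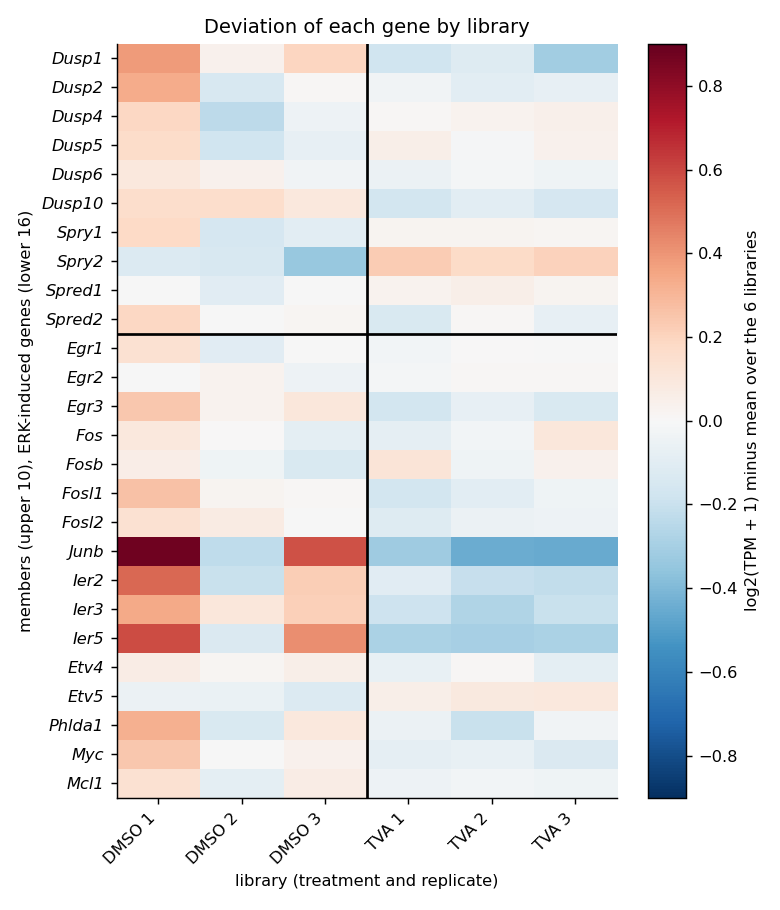
Deviation of log2(TPM + 1) from each gene's mean over the 6 libraries (columns), for the 10 genes (upper rows) and the 16 tested genes known to be induced by ERK (lower rows); red is above and blue below the mean. DMSO replicate 1 is red in most rows, the TVA libraries are pale except for Dusp1, Dusp10, Spry2 and genes such as Junb and Ier5, and DMSO replicate 2 lies nearer to the TVA libraries for Junb, Ier2 and Ier5.

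Other members of these families did not pass. Of 17 further phosphatase, Sprouty and Spred genes listed, 12 were tested and 0 were called with limma, 2 of them at an unadjusted p under 0.05, as were 31.8% of all genes tested. Their median log2 change was -0.005. Dusp28, an atypical phosphatase gene, was nearest to the threshold, at 7.22, 5.43 and 6.92 TPM in the DMSO libraries and 4.89, 4.91 and 4.26 TPM with TVA (log2 change -0.40, adjusted p 0.053). Dusp14 (MKP-6), which restrains T cell receptor signalling, was at 11.39, 9.66 and 11.16 TPM in the DMSO libraries and 9.38, 9.14 and 9.44 TPM with TVA (-0.18, adjusted p 0.11). Dusp28 and Dusp14 were the ones under a limma unadjusted p of 0.05. Of the 12, 3 did not overlap between groups, and neither did 38.6% of all genes tested. These 3 were Dusp28, Dusp14 and Styx, which was higher with TVA. Without DMSO replicate 2, 4 of the list were called, namely Dusp7, Dusp14 and Dusp28 as lower and Dusp19 as higher. In that setting 2242 of all 10866 genes tested were called, against 925 in the reported fit.

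Dusp11, which acts on RNA rather than on MAP kinases, had the highest level in that list, between 45.51 and 46.21 TPM in all 6 libraries. Among the other MAP kinase phosphatases, the ERK phosphatase gene Dusp7 had 16.9 ± 1.85 TPM (SD, n = 3) in the DMSO libraries and 15.0 ± 0.390 TPM with TVA (log2 change -0.16, adjusted p 0.19). The JNK phosphatase gene Dusp16 had 12.9 ± 0.654 and 12.2 ± 0.458 TPM (-0.07, adjusted p 0.42). Changes of Dusp3, Dusp12, Dusp22, Dusp23, Spry4 and the catalytically inactive relative Styx were between -0.10 (Dusp12) and 0.11 (Dusp23), and Dusp19 was at 0.22. Dusp8, Dusp9, Dusp18 and Spred3 did not reach the filter, with values of 0.18 to 0.96 TPM, and Spry3 had no row.

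The cascade that these genes restrain was then examined. All 23 genes of the Ras-ERK list were tested, and 1 was called in each direction, a share close to the 8.51% of all genes tested. The median log2 change was 0.02. Rasgrp1, the exchange factor that activates Ras below the T cell receptor, fell from 43.86, 46.07 and 43.8 TPM to 37.85, 39.66 and 38.79 TPM (log2 change -0.20, limma adjusted p 0.032). Rasa3, a Ras inactivator, rose from 34.58, 31.88 and 31.61 TPM to 39.31, 38.68 and 38.28 TPM (0.24, adjusted p 0.025). The groups did not overlap for either gene. Both calls were lost without DMSO replicate 3 and when any 1 TVA library was left out. Over all genes, 102 to 125 calls remained with a TVA library left out. The replicate block also ended both calls (limma adjusted p 0.062 for Rasgrp1 and 0.054 for Rasa3). Without DMSO replicate 2 the list held 4 calls, Map2k1 and Map2k2 being added as lower. Calls over all 10866 genes tested then rose from 925 to 2242.

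Of the JNK-p38 list, 16 of 17 genes were tested and 0 were called with limma, 7 of them at an unadjusted p under 0.05 (31.8% of all genes tested). The median log2 change was 0.04. The p38 kinase kinase gene Map2k3 had the highest level, with a log2 change of -0.09 (adjusted p 0.37). Jun, the substrate of JNK and a gene of the AP-1 factor, was at 65.42, 39.19 and 55.65 TPM in the DMSO libraries and 37.56, 36.08 and 34.2 TPM with TVA (-0.53, adjusted p 0.075). Jun was named after its values were seen. Without DMSO replicate 2, whose value was close to the TVA libraries, its change was -0.73 (adjusted p 9.07e-04). Without DMSO replicate 1 it was -0.37 (0.10), without DMSO replicate 3 it was -0.48 (0.18), and with a TVA library left out the adjusted p was 0.16 to 0.22.

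Genes that ERK is known to induce were examined next. Of 17 listed, 16 were tested, 2 were called lower and 0 higher, and 13 had negative and 3 positive changes. Over all genes tested 3.23% were called lower. An unadjusted p under 0.05 was found for 8 of the 16, against 31.8% of all genes tested. The median log2 change of the 16 was -0.16, against 0.04 over all genes tested. Subtraction of the GC trend brought it to -0.10, and omission of DMSO replicate 1 to -0.09. Ier3, an immediate early gene of cell survival, fell from 56.56, 47.56 and 51.5 TPM to 38.9, 36.63 and 38.47 TPM (log2 change -0.44, limma adjusted p 0.013). Egr3, a transcription factor of T cell activation, fell from 74.54, 64.03 and 67.38 TPM to 55.72, 59.51 and 57.05 TPM (-0.25, adjusted p 0.045). The TVA values of both lay below all controls.

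Egr1, the best known ERK target, did not pass (log2 change -0.02, 95% interval -0.16 to 0.12, limma adjusted p 0.84). Myc, which had the highest mean of the list over all 6 libraries, was at 335.97, 282.71 and 290.57 TPM in the DMSO libraries and 267.48, 270.7 and 258.73 TPM with TVA (-0.19, adjusted p 0.10, and -0.11 without DMSO replicate 1). Junb, named after its values were seen, was at 426.4, 198.59 and 345.65 TPM in the DMSO libraries and 185.72, 170.37 and 169.5 TPM with TVA (-0.81, adjusted p 0.071, and -0.52 after the GC trend was subtracted, adjusted p 0.057, or 0.046 with the replicate block as well). Junb had the highest mean of the list in the DMSO libraries. The controls of Junb differed more than 2-fold among themselves, and DMSO replicate 2 lay close to the TVA libraries. Without that replicate 8 genes of the list were called, all lower. Over all 10866 genes tested, 2242 were then called, 1019 of them lower, against 925 in the reported fit. The calls of Ier3 and Egr3 were lost when any 1 TVA library was left out, where 102 to 125 calls remained over all genes. Egr3 also lost its call without DMSO replicate 3 (adjusted p 0.093), with the replicate block (0.082), with the block and the GC correction (0.060), with no filter (0.079) and without the variance trend (0.060), and Ier3 did not. The TPM of Hspa1a and Hspa1b, heat shock genes that many stresses raise along with immediate early genes, was also lower with TVA, with log2 changes of -1.36 and -1.56, while the other 4 heat shock genes listed were not called. Hspa1a and Hspa1b are near-identical copies whose separate values are uncertain, and their relation to the fall of Dusp1 was not tested.

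The genes whose pattern over the 6 libraries was most like that of each called gene were looked up among the 8935 genes tested whose mean reached 5 TPM. For Dusp1 they were N6amt1, Mafk and Fhl3 (Pearson r of 0.998, 0.995 and 0.994). For Dusp10 they were Hk2, the hexokinase of glycolytic cells, Padi2 and Wdr59 (0.999, 0.998 and 0.997). Hk2 was at 47.89, 47.64 and 46.91 TPM in the DMSO libraries and 43.66, 44.66 and 43.88 TPM with TVA, a smaller change than that of Dusp10. For Spry2 they were Fam168b, Prpf31 and Zmynd11 (0.996, 0.995 and 0.994). These values are the highest found in that search over 6 points that share library and treatment, and are given as a description.

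The 3 calls were followed through 15 alternative settings. Each kept its direction in all of them, and each was lost when any 1 TVA library was left out. Most calls over all genes were lost in those settings too, from 925 to between 102 and 125. Adjusted p ranged from 0.0078 to 0.15 for Dusp1, from 0.0030 to 0.089 for Dusp10 and from 0.0074 to 0.084 for Spry2. With 3 libraries against 3, the smallest p that an exact permutation test can give is 0.1, so that test cannot pass at 0.05 for any single gene.

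**Figure D5:**
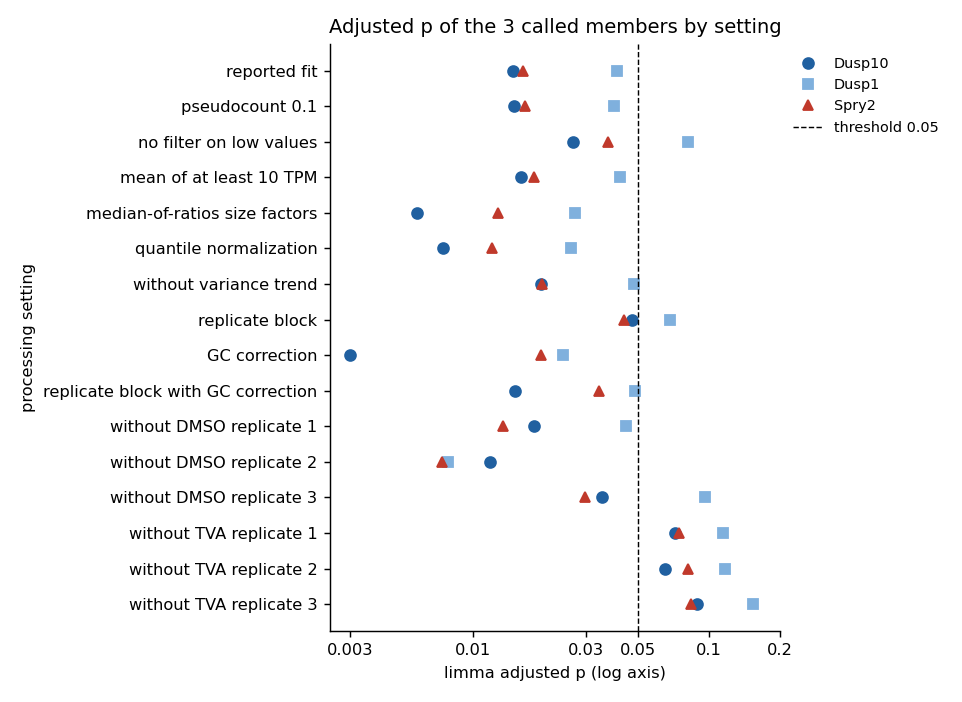
Limma adjusted p (x axis, log scale) of Dusp10 (dark blue circles), Dusp1 (light blue squares) and Spry2 (red triangles) under each processing setting (y axis), with the threshold of 0.05 as a dashed line. All 3 points lie right of the line in the 3 settings that leave out a TVA library, and Dusp1 alone does so with no filter, with the replicate block and without DMSO replicate 3.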

How the data were processed

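RNA-seq was made from 3 DMSO and 3 TVA libraries, grouped and numbered by sample title. Per the labels, libraries were prepared with a SMARTER mRNA-Seq kit. The submitters' processing notes name STAR, RSEM and mm10, while versions, annotation and strand setting are not given in the sources used here. The authors deposited TPM per gene symbol with 2 decimals, used here as deposited. Depth is unknown, so no counting interval is given.

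Values were compared as log2(TPM + 1) with limma 3.58.1 in R 4.3.3 (variance trend, two-sided, treatment as the only term, Benjamini-Hochberg adjustment over 10866 genes with at least 1 TPM in at least 3 libraries, call at 0.05). The fit was tested on simulated data. The genes and gene lists were chosen with earlier results of these data known. Beside the 10 genes, the text names, of each list, called genes (at most 6), the gene with the highest level and tested family members, and 3 correlated genes for each called gene. Not every gene that this rule takes is reported here. Jun, Junb, Egr1, Ier2 and Ier5 were added after their values were seen, and so were genes called only under an alternative. GC content (GENCODE vM21) was available for 97.4% of genes tested, and the GC correction subtracted a loess curve (span 0.5) within each library. Other alternatives changed the pseudocount (0.1), the filter (none, or a mean of at least 10 TPM), the scaling (median-of-ratios, quantile), the variance trend, the replicate block and the libraries left out. Promoter sequences came from RefSeq. Figures were drawn with matplotlib 3.10.9.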

Additional observations from a re-analysis of the deposited data

How the results depend on the processing

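Depth is not recorded in TPM, so what depth limits cannot be stated. Of 150 values of the 10 genes under alternatives, 132 kept their direction and side of the threshold, 12 lost and 1 gained a call, and 5 changed sign. For 23 other named genes these were 295, 21, 12 and 13 of 341. For none of these changes was the cause tested.

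All genes called numbered 925, but 494 with no filter (16749 tested), 608 with a mean of at least 10 TPM, 218 with the replicate block, 550 with the block and the GC correction, and 102 to 2242 with a library left out. The share called higher was 62.1%, but 38.7% with median-of-ratios size factors, 46.1% with quantile-normalized values, 52.5% under the GC correction and 42.7% under the block. The median change of all genes was 0.04, and 0.01 after median-of-ratios scaling.

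With a library left out, 0 to 4 of the 10 genes were called, 0 to 2 higher and 0 to 2 lower. The lower ones numbered 1 with no filter and 1 with the replicate block. Other family genes numbered 1 with median-of-ratios size factors, 1 with quantile-normalized values (Dusp28 both times) and 0 to 4 with a library left out. The Ras-ERK list held 0 with the block and 0 to 4 with a library left out. The JNK-p38 list held 1 and 1 after the 2 scalings, 3 after the GC correction and 0 to 2 with a library left out. The ERK-induced list held 1 with no filter, 1 without the variance trend, 1 with the block and 0 to 8 with a library left out.

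Deviations of libraries 1, 2 and 3 from their group means correlated between DMSO and TVA at 0.16, 0.03 and -0.08, which is too weak to treat equal numbers as pairs. With the replicate block, Dusp1 lost its call (adjusted p 0.068) and Dusp10 and Spry2 did not.

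Signs turned for small changes. Dusp11 was at -0.0221 with median-of-ratios size factors, -0.0102 with quantile-normalized values and -0.0663 under the GC correction with or without the block. Dusp3 was at -0.0009 after median-of-ratios scaling and -0.0155 after the GC correction, again with or without the block, as were Spred1 (-0.0131) and Styx (-0.0099). With a library left out, ranges were -0.0739 to 0.0352 for Dusp22, -0.0185 to 0.052 for Dusp3, -0.0411 to 0.1698 for Dusp4, -0.0175 to 0.1528 for Dusp5 and -0.0183 to 0.1448 for Spry1.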
